A study of Mus musculus with 16 samples.

Results

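Malat1, Neat1 and Kcnq1ot1 are long noncoding RNAs that stay in the nucleus. They are 3 of the 23410 genes in a table of raw read counts, picked out by symbol and chosen by their measured levels over the doses, and all 3 were among the 10080 genes with enough counts to test. The counts came from G1E-ER4 cells, a mouse erythroid line without its own GATA1 protein that carries a fusion of GATA1 with the hormone-binding domain of the estrogen receptor. Cells were given 12.5, 25, 50, 75, 100, 150 or 200 nM beta-estradiol, which moves the fusion protein into the nucleus, or 0 nM as the control, with 2 libraries at each of the 8 doses. Every group carried the fusion protein, so effects of beta-estradiol itself and of nuclear GATA1 cannot be told apart. All cells grew in IMDM with serum, stem cell factor and erythropoietin. The sources used here do not give the length of exposure. The labels do not say whether replicates were separate cultures, so the errors measure the spread between these libraries, which may be technical.

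Malat1 gathers in nuclear speckles, the stores of splicing factors, and is one of the most abundant noncoding RNAs of mammalian cells. Neat1 is the RNA scaffold of paraspeckles, nuclear bodies built on its long form with the proteins Nono and Sfpq. Kcnq1ot1 is copied from the paternal chromosome, antisense to Kcnq1, and silences neighbouring genes of its imprinted domain in cis, above all in the placenta. The ends of these RNAs differ. Malat1 and the long form of Neat1 are cut by RNase P and end in a triple helix of a pair of U-rich stretches and an A-rich tract encoded in the genome, in place of a poly(A) tail. The short form of Neat1 has such a tail. Smart-seq2 starts copying at stretches of A, which is why the ends are shown here.

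The first 2 sequences are the 3′ triple-helix elements, with both U-rich motifs (T in these letters) and the A-rich tract of each in capitals. The third is the longest run of A in Kcnq1ot1, in capitals, and the fourth its annotated 3′ end with a polyadenylation signal in capitals. All are DNA letters of the minus strand, 5′ to 3′, from GENCODE M21 transcripts on GRCm38, at chr19:5795976-5796077, chr19:5824708-5824807, chr7:143226925-143227005 and chr7:143203458-143203517 in that order.
Malat1: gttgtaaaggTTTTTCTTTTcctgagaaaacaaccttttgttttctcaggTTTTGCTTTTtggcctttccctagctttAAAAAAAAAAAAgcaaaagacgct
Neat1: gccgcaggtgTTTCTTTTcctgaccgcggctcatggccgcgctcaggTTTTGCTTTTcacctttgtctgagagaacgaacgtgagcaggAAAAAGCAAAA
Kcnq1ot1 A run: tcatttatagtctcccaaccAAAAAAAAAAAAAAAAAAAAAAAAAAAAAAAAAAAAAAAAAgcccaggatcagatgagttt
Kcnq1ot1 end: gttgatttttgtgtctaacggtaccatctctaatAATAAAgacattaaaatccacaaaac

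The 3 genes differ widely in length and in stretches of A. Malat1 (chromosome 19, 5795690 to 5802672, minus strand) has a longest transcript of 6983 bases with 1 run of 10 or more A, of 12 bases, the tract shown above. Neat1 (chromosome 19, 5824708 to 5845478, minus strand) lies 22035 bases before the start of Malat1, and its 20771 bases hold no run over 7 A. Kcnq1ot1 (chromosome 7, 143203458 to 143296549, minus strand) is a single exon of 93092 bases with 10 runs of 10 or more A, the longest of 41. Of the 9975 tested genes with an annotated length 2 were as long as Kcnq1ot1 or longer, itself included, and 2 had as many such runs. The counts are given per gene symbol, so the short and long forms of Neat1 are not separated. Which of these bases were counted is not known, since the annotation behind the counts is not stated.

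Library totals ran from 9393156 to 15802510 counts. The 9 erythroid markers found in the table, of 11 looked for, summed to 30244 to 30718 CPM (counts relative to the library total, scaled by TMM) at 200 nM and 2515 to 2611 CPM at 0 nM. Megakaryocyte markers summed to 439 to 454 CPM at 200 nM and 18 to 18.8 CPM at 0 nM, with Vwf at 0 counts in every library. Granulocyte and macrophage markers summed to at most 2.58 CPM at 200 nM, with Mpo and Lyz2 at 0 counts, and lymphocyte markers to at most 0.276 CPM, with Cd3e and Ms4a1 among those at 0 counts. The 5 fibroblast and endothelial markers were at 0 CPM in both groups. The share of counts in Rn45s, the gene of the ribosomal RNA precursor, was 9.61% and 9.53% in the libraries at 0 nM. It was 8.94% and 9.1% in those at 12.5 nM, and 14.6% and 15.3% in those at 200 nM. The part of these shifts in the levels below was not tested, and in bulk RNA fewer cells of a type and less RNA per cell cannot be told apart.

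Malat1 and Neat1 ended far above their uninduced level, and Kcnq1ot1 moved down, up and down again with dose. All 3 were lowest on average at 12.5 nM. Malat1 spanned 6.66-fold between its lowest and highest dose means, Neat1 13.7-fold and Kcnq1ot1 2.54-fold, while the largest ratio between the 2 libraries of a dose was 1.13, 1.29 and 1.13 for the same genes. These RNAs were chosen with their values over the doses known, so levels and fold changes are given as a description with standard errors and without p-values. The 7 comparisons share the same 2 libraries at 0 nM.

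**Figure D1:**
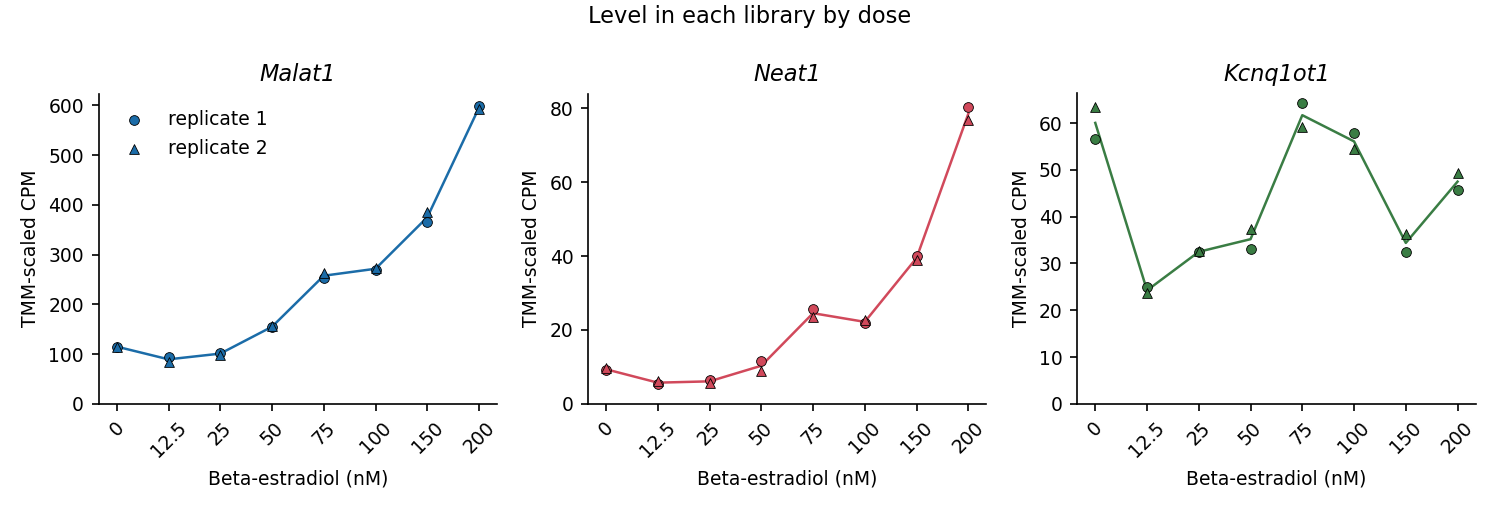
TMM-scaled CPM (y axis, starting at 0) of Malat1, Neat1 and Kcnq1ot1 in each of the 16 libraries by beta-estradiol dose in nM (x axis, doses evenly spaced), with circles and triangles for the 2 replicates and a line through the dose means. Malat1 and Neat1 dip at 12.5 and 25 nM and end at 595 and 78.6 CPM on average at 200 nM, while Kcnq1ot1 has low points at 12.5 and 150 nM and a high point at 75 nM.

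Malat1 was the most abundant of the 3 in every library. It had 115 and 115 CPM at 0 nM, 94.9 and 84 CPM at 12.5 nM, and 103 and 98.9 CPM at 25 nM. Both low doses lay below the 0 nM libraries. It then had 154 and 156 CPM at 50 nM, 253 and 262 CPM at 75 nM, and 269 and 274 CPM at 100 nM. It reached 365 and 385 CPM at 150 nM and 598 and 593 CPM at 200 nM. From 12.5 nM upward each dose lay above the one before it with no overlap between libraries, and as a ratio of means the smallest of these steps was from 75 to 100 nM. The log2 fold change against 0 nM was -0.36 ± 0.05 at 12.5 nM, -0.19 ± 0.05 at 25 nM, 0.43 ± 0.04 at 50 nM, 1.16 ± 0.04 at 75 nM, 1.24 ± 0.04 at 100 nM, 1.70 ± 0.04 at 150 nM and 2.37 ± 0.04 at 200 nM (± standard error of the edgeR fit). At the top dose this is 5.18-fold, from 6491 and 6996 counts at 200 nM against 1873 and 1824 counts at 0 nM.

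Neat1 lay at a much lower level, with a wider range over the doses. It had 9.08 and 9.65 CPM at 0 nM, 5.34 and 6.13 CPM at 12.5 nM, and 6.46 and 5.73 CPM at 25 nM. The 2 low doses overlapped each other and both lay below 0 nM. At 50 nM it had 11.6 and 9.03 CPM, which overlapped 0 nM, and at 75 nM it had 25.6 and 23.5 CPM. At 100 nM its 21.8 and 22.6 CPM lay just below 75 nM, before 40.0 and 39.0 CPM at 150 nM and 80.3 and 76.8 CPM at 200 nM. The last step, 200 over 150 nM, was 1.99-fold, against 1.59-fold for Malat1. The log2 fold change against 0 nM was -0.70 ± 0.14 at 12.5 nM, -0.61 ± 0.14 at 25 nM, 0.14 ± 0.13 at 50 nM, 1.39 ± 0.12 at 75 nM, 1.25 ± 0.12 at 100 nM, 2.08 ± 0.11 at 150 nM and 3.07 ± 0.10 at 200 nM. The top value is 8.39-fold, from 872 and 906 counts at 200 nM against 148 and 153 counts at 0 nM. The lowest count in any library was 85, at 25 nM.

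Kcnq1ot1 crossed between low and high levels more than once. It had 56.7 and 63.4 CPM at 0 nM, 24.9 and 23.6 CPM at 12.5 nM, and 32.4 and 32.6 CPM at 25 nM. The 12.5 nM libraries were the lowest of all 16. It had 33.1 and 37.3 CPM at 50 nM, 64.3 and 59.1 CPM at 75 nM, and 57.8 and 54.4 CPM at 100 nM. The 75 and 100 nM libraries overlapped those at 0 nM and did not overlap the doses on either side of them. It had 32.4 and 36.4 CPM at 150 nM and 45.7 and 49.3 CPM at 200 nM, both below 0 nM. The log2 fold change against 0 nM was -1.31 ± 0.08 at 12.5 nM, -0.89 ± 0.08 at 25 nM, -0.77 ± 0.08 at 50 nM, 0.04 ± 0.07 at 75 nM, -0.10 ± 0.07 at 100 nM, -0.81 ± 0.08 at 150 nM and -0.34 ± 0.08 at 200 nM. The 12.5 nM level was 0.404 times that at 0 nM, from 401 and 404 counts against 924 and 1005. In order of dose means, 25 overlapped 150 nM, 150 overlapped 50 nM, 100 overlapped 0 nM and 0 overlapped 75 nM, and the other neighbours in the order did not overlap. With library size alone in place of TMM, Kcnq1ot1 was at -0.72 at 200 nM and at -0.29, then called, at 100 nM.

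**Figure D2:**
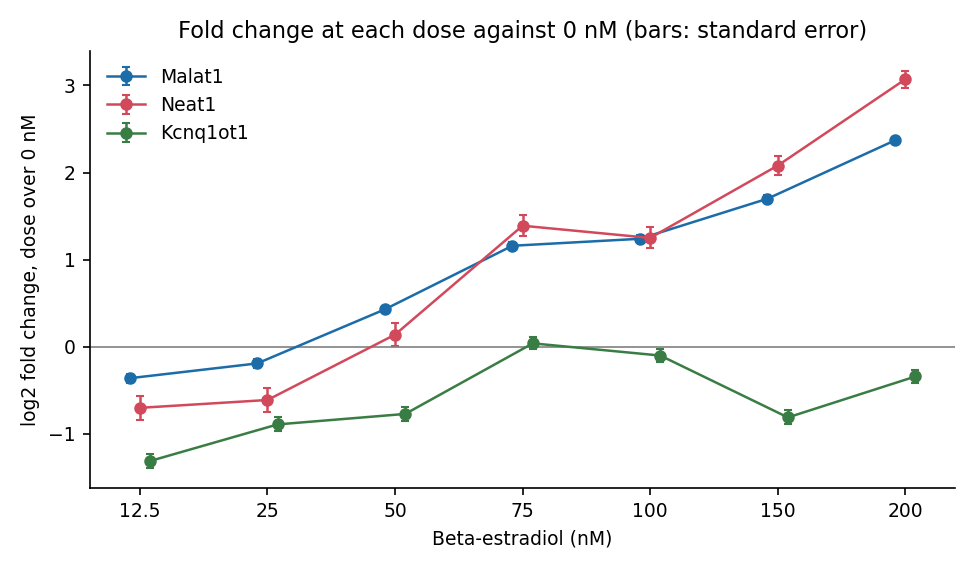
Log2 fold change over 0 nM (y axis) of Malat1, Neat1 and Kcnq1ot1 by beta-estradiol dose in nM (x axis, evenly spaced), with bars for the standard error of the edgeR fit over all 16 libraries. All 3 lie below 0 at 12.5 and 25 nM, Malat1 and Neat1 reach 2.37 and 3.07 at 200 nM, and Kcnq1ot1 returns to about 0 at 75 and 100 nM only.

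A gene was called where the Benjamini-Hochberg adjusted p of the edgeR quasi-likelihood test was under 0.05 over all 10080 genes. At 12.5 nM all 3 were called lower, where 0.228% of genes were called lower, 0.278% higher and 0.506% either way. At 25 nM all 3 were again called lower, where 1.02% of genes were called lower and 4.02% in either direction. At 50 nM Malat1 was called higher and Kcnq1ot1 lower, with 18.8% of genes called higher, 14.7% lower and 33.5% either way. At 75 nM Malat1 and Neat1 were called higher, with 29.0% of genes called higher, 26.9% lower and 56.0% either way. At 100 nM the same 2 were called higher, with 34.1% of genes called higher, 32.5% lower and 66.6% either way. At 150 nM Malat1 and Neat1 were called higher and Kcnq1ot1 lower, with 37.7% of genes called higher, 36.6% lower and 74.3% either way. At 200 nM these calls were the same, with 40.5% of genes called higher, 39.5% lower and 80.0% either way. Since these comparisons were known when the 3 RNAs were chosen, the counts support nothing by themselves. Some low-dose calls rested on single libraries. Neat1 at 12.5 nM was at -0.66 without 0 nM replicate 2 and at -0.61 without 12.5 nM replicate 1, and neither value was called. The same held for Neat1 at 25 nM, at -0.57 without 0 nM replicate 2 and -0.53 without 25 nM replicate 2. Malat1 at 25 nM was not called at -0.19 without 0 nM replicate 1, at -0.18 without 0 nM replicate 2 or at -0.16 without 25 nM replicate 2. The Kcnq1ot1 calls did not change when any of the 16 libraries was left out.

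Long transcripts moved slightly with the low doses too. The 998 tested genes with the longest transcripts, 6594 bases or more, had a median log2 change of -0.03 at 12.5 nM and 0.18 at 200 nM, against 0.02 and 0.00 in other genes. The 8 other genes with transcripts of 20 kb or more had a median of -0.14 at 12.5 nM, with a range from -0.49 to 0.03, so Kcnq1ot1 at -1.31 and Neat1 at -0.70 lay below all of them at that dose. With the trend of each library with length removed, Kcnq1ot1 was at -0.93 at 12.5 nM, -0.49 at 25 nM, -0.49 at 50 nM and -0.52 at 200 nM, and was still called at each of these doses. In the same fit Neat1 was at -0.55 at 12.5 nM and -0.44 at 25 nM, and Malat1 at -0.15 at 25 nM, and none of these 3 values was called. Few genes are as long as Kcnq1ot1, so the trend at its length rests on few points.

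Ratios within a library need no scaling between libraries. Neat1 per 100 Malat1, in counts per kb of the longest transcript, was 2.66 and 2.82 in the 0 nM libraries, 1.89 and 2.45 in those at 12.5 nM, and 2.11 and 1.95 in those at 25 nM. It was 3.41 and 3.02 in the 75 nM libraries, 3.68 and 3.4 in those at 150 nM, and 4.52 and 4.35 in those at 200 nM. The 200 nM libraries thus had more Neat1 relative to Malat1 than those of any other dose, and 75 nM lay above 100 nM, which had 2.73 and 2.77. Kcnq1ot1 per 100 Malat1 was 3.7 and 4.13 in the 0 nM libraries, 1.97 and 2.11 in those at 12.5 nM, and 1.61 and 1.49 in those at 100 nM. It was 0.666 and 0.709 at 150 nM and 0.573 and 0.624 at 200 nM. The Kcnq1ot1 level per kb was far below that of Neat1 at 200 nM, at 12.7 and 14.3 per 100 Neat1, and above it at 0 nM, at 139 and 147. These ratios rest on annotated lengths, and a shorter Kcnq1ot1 in the authors' annotation would raise its ratios by the same factor at all doses. The Neat1 length is as open, since its short form has 3004 annotated bases against 20771 for the longest transcript. A shorter Neat1 would raise Neat1 per 100 Malat1 and lower Kcnq1ot1 per 100 Neat1 at all doses. Whether Kcnq1ot1 or Neat1 was higher per kb at 0 nM therefore depends on the annotation.

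**Figure D3:**
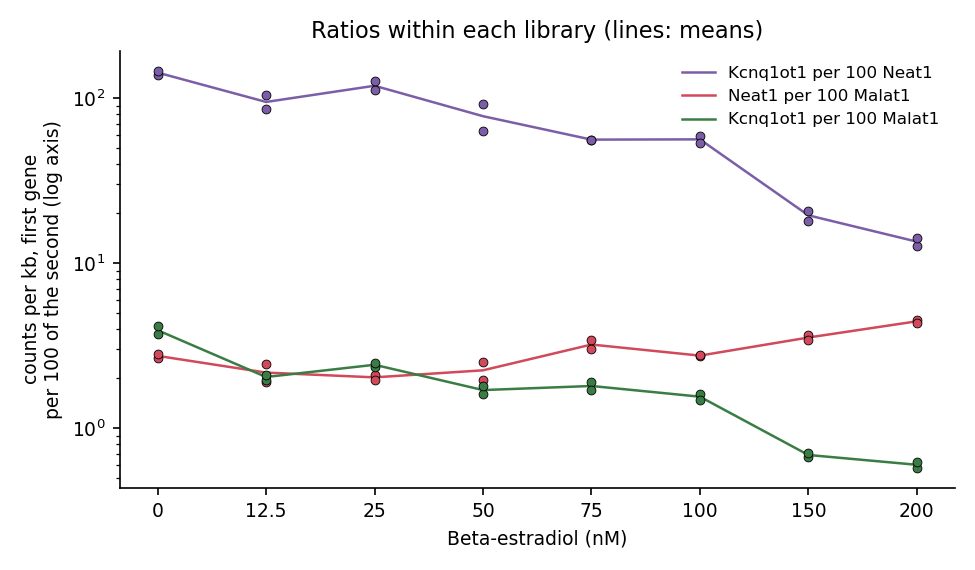
Ratios of counts per kb between 2 of the RNAs within each library, as the first gene per 100 of the second (y axis, log scale), by beta-estradiol dose in nM (x axis, evenly spaced), with 2 points per dose and lines through the means. Kcnq1ot1 per 100 Neat1 has a mean of 13.5 at 200 nM and 143 at 0 nM, and Neat1 per 100 Malat1 a mean of 4.44 at 200 nM and 2.74 at 0 nM.

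Among the 293 tested genes annotated as long noncoding RNAs, Malat1 ranked 5 by mean CPM per kb at 200 nM and 22 at 0 nM. Neat1 ranked 81 at 200 nM and 211 at 0 nM, and Kcnq1ot1 232 at 200 nM and 190 at 0 nM. These ranks and the values per kb rest on the same annotated lengths. On the CPM per kb scale Malat1 averaged 85.3 at 200 nM and 16.5 at 0 nM, Neat1 3.78 at 200 nM and 0.451 at 0 nM, and Kcnq1ot1 0.51 at 200 nM and 0.645 at 0 nM. The other 290 long noncoding genes had 132 members called higher and 60 lower at 200 nM, with a median log2 change of 0.44. Of all 10080 tested genes 4086 (40.5%) were higher and 3977 (39.5%) lower, with a median of 0.02. Values with library size alone, which moves the median of all genes by -0.38, are not given for this set. At 12.5 nM 1 of the 290 was called lower, and their median was -0.06 against 0.01 for all genes.

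Better known long noncoding RNAs moved in both directions at 200 nM. For this and the following lists, 40.5% of all tested genes were called higher and 39.5% lower, with a median of 0.02, or 28.0% higher and 53.5% lower, with a median of -0.36, with library size alone. Of 20 tested, from a list of 39, 8 rose and 6 fell, with a median of 0.22, and library size alone in place of TMM gave 5 higher and 10 lower with a median of -0.16. The RNA 1700020I14Rik, known as Cyrano and a brake on the microRNA miR-7, rose by 1.27 ± 0.07 on the log2 scale (edgeR quasi-likelihood, Benjamini-Hochberg adjusted p = 9.76e-23). Dleu2 and Mir22hg, which host microRNAs, rose by 2.17 ± 0.18 and 2.62 ± 0.23 (adjusted p = 5.85e-15 and 1.97e-14, same test), and the snoRNA host Snhg3 fell by 1.70 ± 0.08 (adjusted p = 5.68e-18). Xist, the nuclear RNA that silences an X chromosome, is named here after its values were seen, as the 1 member of the list called at 12.5 nM. It had 3.66 ± 0.97 CPM at 12.5 nM and 6.68 ± 0.70 CPM at 0 nM (SD, n = 2 each), a log2 change of -0.87 ± 0.21 (adjusted p = 0.0281 in edgeR's quasi-likelihood test). At 25 nM it was at -0.98 ± 0.21 (adjusted p = 0.00239, same test), and at 200 nM at 0.24 ± 0.19, which did not pass. Reads of Xist and of its antisense partner Tsix cannot be told apart where they overlap, since the libraries do not keep the strand.

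Genes for the proteins that work with Neat1 and Malat1 mostly fell. The levels are of mRNA, and proteins were not measured. Of all tested genes 40.5% were higher and 39.5% lower at 200 nM, or 28.0% and 53.5% with library size alone. Of 18 genes for paraspeckle proteins 2 rose and 11 fell at 200 nM (median -0.42). Library size alone left none of them higher and 14 lower. Without 0 nM replicate 2, and without 200 nM replicate 2, 1 was higher. The smallest adjusted p was that of Tardbp, which encodes the RNA-binding protein TDP-43, at -1.41 ± 0.05 (edgeR quasi-likelihood, Benjamini-Hochberg adjusted p = 8.94e-30). Hnrnpm, a splicing regulator, fell by 0.78 ± 0.03, the nuclear matrix protein gene Matr3 fell by 0.79 ± 0.04 and the chromatin remodeller gene Smarca4 fell by 0.67 ± 0.04. Nono and Sfpq, named for their role in building paraspeckles, were at -0.52 ± 0.04 and 0.14 ± 0.07, and the second did not pass. Of 18 genes for nuclear speckle proteins 5 rose and 11 fell (median -0.28), or 2 and 14 with library size alone. The splicing factor gene Srsf3 averaged 282 CPM at 200 nM and 657 CPM at 0 nM. It fell by 1.22 ± 0.04 on the log2 scale and the splicing activator gene Bclaf1 fell by 0.65 ± 0.03, while Prpf6, of the tri-snRNP, rose by 1.24 ± 0.04 and Clk1, a kinase of SR proteins, by 1.47 ± 0.05 (adjusted p = 4.66e-33, 1.90e-23, 2.38e-32 and 8.25e-31 in that order, same test).

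Genes that make or bind the Malat1 end mostly fell. Beside them, 39.5% of all tested genes were lower and 40.5% higher at 200 nM. With library size alone 53.5% were lower and 28.0% higher, with a median of -0.36 for all genes. Of 13 genes for RNase P subunits, RNase Z and the triple-helix binder Mettl16, 11 fell and 1 rose at 200 nM, with a median of -0.86 against 0.02 for all tested genes. Library size alone gave 13 lower, and the 1 that rose was no longer called without 0 nM replicate 2 or without 200 nM replicate 2. Mettl16, whose human counterpart binds the MALAT1 triple helix, had 23.8 ± 0.7 CPM at 200 nM and 120 ± 2.7 CPM at 0 nM (SD, n = 2 each), a fall by 2.33 ± 0.07 on the log2 scale (edgeR quasi-likelihood, Benjamini-Hochberg adjusted p = 6.18e-33). The RNase P subunit genes Rpp40 and Rpp30 fell, at -3.24 ± 0.14 and -0.86 ± 0.06, and Elac2, the RNase Z that trims tRNA ends and the small RNA cut from Malat1, fell by 0.92 ± 0.06. Of 10 genes for writers and nuclear readers of the RNA mark m6A, which Malat1 carries, 2 rose and 4 fell (median 0.05), or 1 and 7 with library size alone and a median of -0.33. The share of m6A genes called lower lay near the 39.5% of all tested genes. The 4 that fell were the writer genes Mettl3 and Mettl14, at -0.68 ± 0.07 and -1.09 ± 0.09, and Hnrnpa2b1 and Hnrnpc, at -0.90 ± 0.03 and -0.61 ± 0.03. The 2 that rose were Ythdc1, at 0.69 ± 0.12, and Zc3h13, at 0.31 ± 0.07, named here after their values were seen.

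**Figure D4:**
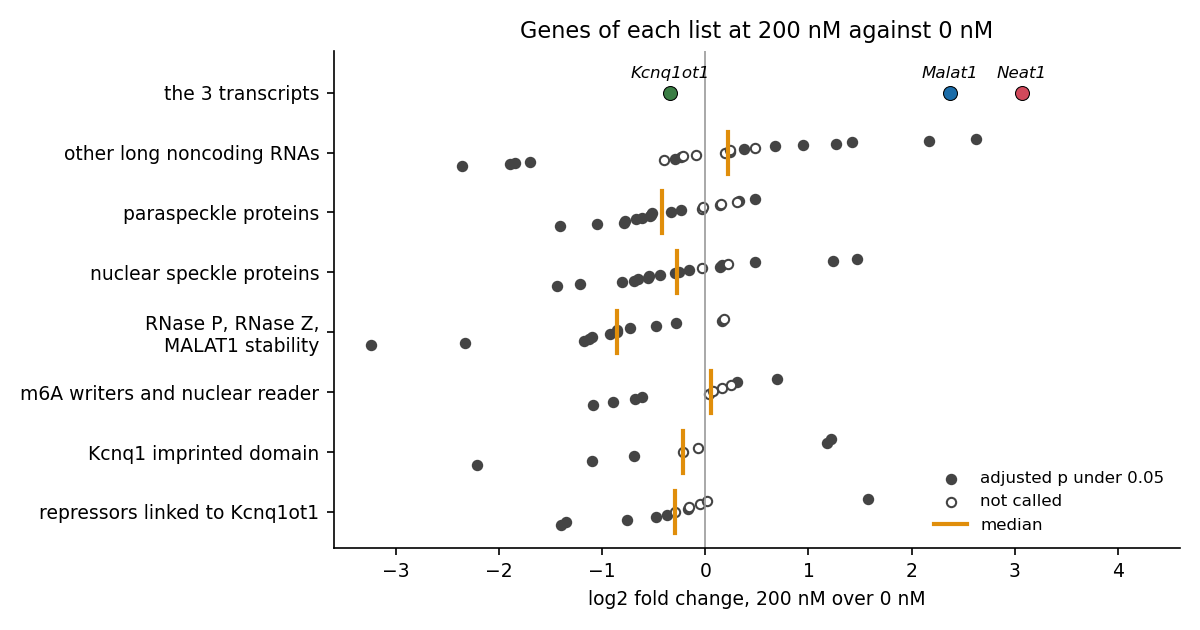
Log2 fold change of 200 nM over 0 nM (x axis) for each tested gene of the 7 lists and for the 3 transcripts (rows), with filled points for genes with an adjusted p under 0.05, open points for others and an orange bar at each list's median. Malat1 at 2.37 and Neat1 at 3.07 lie to the right of every paraspeckle, speckle and RNase gene shown, and the RNase list has the lowest median, -0.86.

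Several genes of the Kcnq1ot1 domain were without reads, while others had many. The counts do not separate the parental copies, so silencing by Kcnq1ot1 was not tested. Kcnq1, the potassium channel gene in whose body all 93092 bases of Kcnq1ot1 lie, had 0 counts in all 16 libraries, which allows up to 0.0132 CPM by counting error alone (3 counts over the summed total). Only 121 bases of Kcnq1ot1 are also annotated Kcnq1 exon. Reads on the opposite strand cannot be told apart here, but spliced Kcnq1 was not detectable at this depth. Cdkn1c, the cell cycle inhibitor gene silenced in the domain, and Phlda2, a brake on placental growth, were also at 0 counts in every library. Of 18 genes listed for the domain 7 had enough counts to test, of which 2 rose and 3 fell at 200 nM (median -0.22), or 2 and 5 with library size alone.

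Genes of the domain with enough counts moved in both directions. The tetraspanin genes Cd81 and Tspan32 rose by 1.18 ± 0.04 and 1.22 ± 0.03 at 200 nM (edgeR quasi-likelihood, Benjamini-Hochberg adjusted p = 1.81e-29 and 1.16e-34). The histone chaperone gene Nap1l4 fell by 0.69 ± 0.04, the cysteine tRNA synthetase gene Cars fell by 1.10 ± 0.07 and the sterol reductase gene Dhcr7 fell by 2.21 ± 0.06 (adjusted p = 2.07e-21, 1.68e-20 and 9.74e-33, same test). Tssc4 was at -0.07 ± 0.07 and Nadsyn1, of NAD synthesis, at -0.22 ± 0.14, and neither passed. At 12.5 nM, where Kcnq1ot1 was at -1.31, these 7 genes ranged from -0.05 to 0.08 and none was called. Of 11 tested genes for repressors linked to the silencing or the imprint 1 rose and 6 fell at 200 nM (median -0.29), or 1 and 10 with library size alone, where 39.5% and 53.5% of all tested genes were lower by the same scalings. The histone methyltransferase genes Ehmt1 and Ehmt2 fell, at -1.35 ± 0.07 and -0.76 ± 0.08, Uhrf1, which maintains DNA methylation, fell by 1.40 ± 0.04 and the Polycomb gene Eed fell by 0.48 ± 0.07 (adjusted p = 6.14e-22, 1.23e-11, 5.49e-34 and 1.25e-08 in that order).

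Genes around the Malat1 and Neat1 loci are counted beside all tested genes, of which 40.5% were higher and 39.5% lower at 200 nM, or 28.0% and 53.5% with library size alone. Within 250 kb of Malat1 20 genes were tested, of which 14 were called higher and 1 lower, or 10 and 5 with library size alone. Without 0 nM replicate 2, 2 were lower. Around Neat1 26 were tested, with 16 higher and 4 lower and a median of 0.36, or 11 and 9 and a median of -0.02 with library size alone. The 2 sets share 18 genes. Each contains the other noncoding RNA, which is among those called higher and was chosen with its values known. Frmd8, 4.2 kb before the start of Neat1 on the same strand, rose by 1.47 ± 0.07 (edgeR quasi-likelihood, Benjamini-Hochberg adjusted p = 8.77e-25). Ehbp1l1, 69.4 kb past the end of Malat1, rose by 1.64 ± 0.05 and the DNA polymerase alpha subunit gene Pola2 fell by 1.13 ± 0.05. At 12.5 nM the 25 tested neighbours of Neat1 other than Malat1 had a median of 0.02. Around Kcnq1ot1 5 genes were tested, of which Cd81 and Tspan32 were higher and Nap1l4 lower, while Tssc4 and R74862, at 0.30 ± 0.34, did not pass. With library size alone 2 were lower. At 12.5 nM R74862 was at -0.80 ± 0.36 (adjusted p = 0.543 in edgeR's quasi-likelihood test), and the other 4 ranged from -0.03 to 0.08.

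**Figure D5:**
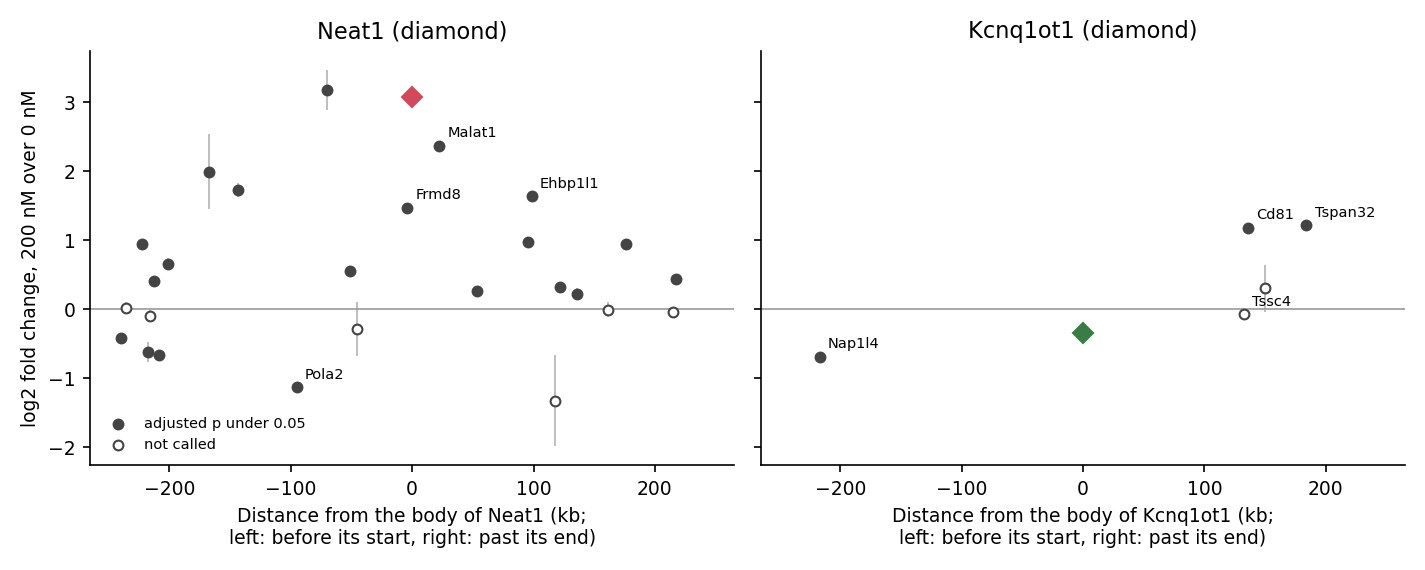
Log2 fold change of 200 nM over 0 nM (y axis, bars for the standard error) of tested genes within 250 kb of Neat1 (left) and Kcnq1ot1 (right), by distance in kb from the body of the RNA along its own direction (x axis), with filled points for an adjusted p under 0.05 and a diamond for the RNA itself. Frmd8 at 1.47 and Malat1 at 2.37 flank Neat1, whereas the genes nearest to Kcnq1ot1 with enough counts lie over 100 kb away.

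The promoter of Kcnq1ot1 is shown because its CCAAT boxes are known in the mouse to bind NF-Y and to be needed for its transcription. The GATA motif was searched because beta-estradiol, whose dose was varied here, moves a GATA1 fusion into the nucleus. A promoter entry was found in RefSeq for 2 of the 3 RNAs, Malat1 and Kcnq1ot1. The window runs from 250 bases before the start to 50 after it, on the minus strand at chr7:143296498-143296797 (GRCm38.p6). Capitals mark matches to CCAAT and to the GATA motif, searched on both strands as AGATAA or, with another first base, as TGATAA, each also with G as the last base. The 2 kinds of match do not overlap here.
Kcnq1ot1 promoter: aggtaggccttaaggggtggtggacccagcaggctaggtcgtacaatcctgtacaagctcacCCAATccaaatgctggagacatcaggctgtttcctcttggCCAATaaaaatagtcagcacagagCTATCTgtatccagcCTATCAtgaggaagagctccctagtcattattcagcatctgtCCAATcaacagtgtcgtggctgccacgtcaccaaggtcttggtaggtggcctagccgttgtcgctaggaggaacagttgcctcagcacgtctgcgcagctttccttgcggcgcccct

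Kcnq1ot1 had 3 CCAAT matches, starting 188, 148 and 67 bases before the start, and 2 GATA matches on the opposite strand, 124 and 109 bases before it. Of 32851 promoters of that length 3.37% held 3 or more CCAAT matches and 7.77% held 2 or more GATA matches. The Malat1 promoter held neither motif, where 37.4% of promoters held CCAAT and 29.8% a GATA match. The consensus palindromic estrogen response element was in neither of the 2 windows and in 0.0213% of promoters. A match describes the letters and does not show a site in use.

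The genes whose courses over the 16 libraries lay nearest were named by the root mean square difference of log2 CPM, each gene centred on its own mean, among 6527 genes with at least 20 CPM on average at some dose. For Malat1 they were Cit, a kinase of cytokinesis, at 0.12, the ubiquitin ligase genes Fbxw7 and Herc1 at 0.13 each, and Ank1, the red cell ankyrin, and St7 at 0.14 each. None of the 5 dipped as far at 12.5 nM, where their log2 changes ran from -0.18 for Herc1 to 0.05 for Ank1. For Neat1 they were the transporter gene Abcc5 at 0.24, the membrane ubiquitin ligase genes March2 and March8 at 0.25 and 0.26, Smap1 at 0.27 and Fryl at 0.28. March8 had 13.7 CPM at 12.5 nM and 18.3 CPM at 0 nM. Malat1 lay 0.37 from Neat1, with 458 genes nearer to Malat1 than Neat1 was, and 49 genes nearer to Neat1 than Malat1 was. No gene lay as near to Kcnq1ot1, for which the nearest were the histone methyltransferase genes Ash1l at 0.34 and Mll2 at 0.36, and the histone chaperone gene Asf1a, the repair gene Brca2 and Spg11 at 0.37 each. Asf1a and Brca2 had 60.6 and 79.7 CPM at 75 nM against 41.2 and 51.2 CPM at 0 nM. Kcnq1ot1 itself averaged 61.7 CPM at 75 nM and 60 CPM at 0 nM. At 150 nM Asf1a and Brca2 stayed above 0 nM, at 48.8 and 66.6 CPM, while Kcnq1ot1 lay below it, at 34.4 CPM.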

How the data were processed

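The deposited table holds the authors' raw counts, whole numbers without normalisation, for each gene symbol in 16 Smart-seq2 libraries. The submitters' processing notes name bcl2fastq, STAR and the mm10 build. How reads were counted, on which annotation and with what treatment of multi-mapped reads is not stated in those notes. Smart-seq2 keeps no strand and uses no molecular identifiers, so intervals and floors cover counting error only.

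Here genes were kept by filterByExpr, scaled by TMM and fitted with edgeR 4.0.16 (quasi-likelihood, robust, R 4.3.3) on all 16 libraries with dose as a factor, and p-values were adjusted by Benjamini-Hochberg per contrast. The standard error is the log2 fold change divided by the square root of F. Positions, lengths and transcripts came from GENCODE M21 on GRCm38, and lengths covered 99% of tested genes. The longest transcript was used for values per kb.

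The members, lists and tests were chosen with earlier results of these data known. The rule for named genes took, per list, up to 4 tested members by smallest adjusted p at 200 nM, all tested genes of the Kcnq1 domain, the nearest neighbours, and the 5 nearest courses per RNA; 1 gene the rule names is not reported here. The fit was tested on simulated counts. Replicate numbers did not pair the samples, as correlations of deviations between doses ran from -0.0583 to 0.096 over 28 pairs of doses.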

Additional observations from a re-analysis of the deposited data

How the results depend on the processing

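The alternatives were DESeq2, library size alone, removal of Rn45s, no filter, fits of 2 doses only, the replicate number as a block, removal of the length trend and leaving out each of the 16 libraries in turn. None of the fold changes of the 3 RNAs that was called reversed its sign. With library size alone, which moves the median of all genes by -0.38 on the log2 scale at 200 nM, Kcnq1ot1 at 100 nM was called at -0.29 and at 200 nM was at -0.72. With the length trend removed, Malat1 at 25 nM was at -0.15, Neat1 at 12.5 nM at -0.55 and Neat1 at 25 nM at -0.44, none of them called. Leaving out each library in turn gave -0.21 to -0.16, -0.81 to -0.61 and -0.71 to -0.53 for the same 3 values.

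Counts of called list genes are by RNA level, and proteins were not measured. They moved mainly with library size alone at 200 nM. It gave 5 higher and 10 lower long noncoding RNAs, 0 higher paraspeckle and 2 higher speckle proteins, 0 higher RNase genes, 1 higher and 7 lower m6A genes, 5 lower genes of the Kcnq1 domain and 10 lower repressors, and 5, 9 and 2 lower genes near Malat1, Neat1 and Kcnq1ot1. With the length trend removed 1 paraspeckle protein, 3 speckle proteins and 0 RNase genes were higher, and 2 genes were lower near Malat1 and 2 near Kcnq1ot1. DESeq2 gave 0 higher RNase genes, and fits of 2 doses gave 2 lower genes near Malat1. Leaving out each library gave 1 to 3 higher paraspeckle proteins, 3 to 5 higher speckle proteins, 0 to 1 higher RNase genes and 1 to 2 lower genes near Malat1.

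Over all genes the calls at 12.5 nM were 28 higher and 23 lower, but 23 and 12 with DESeq2, 35 and 10 with the length trend removed and 30 and 47 with 2 doses only. At 25 nM they were 302 higher and 103 lower, but 251 and 49 with DESeq2, 224 and 130 with 2 doses only and 174 and 225 with library size alone. Library size alone also gave 1336 higher and 2330 lower at 50 nM, against 1896 and 1481, and 2819 and 5396 at 200 nM, against 4086 and 3977. The causes were not tested. Replicate numbers did not pair the samples, and with the replicate block Neat1 was at -0.70 at 12.5 nM and 3.07 at 200 nM. The block changed no call of the 3 RNAs, made 3 m6A genes higher in place of 2, and moved no count over all genes by more than 1.5 times. The exon unions of the 3 RNAs are as long as their longest transcripts, so using them could not change the ratios per kb. The number of A runs in Kcnq1ot1 was 30 for 8 or more and 5 for 15 or more, and in Malat1 0 for 15 or more.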
